A study of Mus musculus with 40 samples.

Results

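This is the comparison of XAV939-treated with untreated mouse embryonic stem cell aggregates at day 7, made on 8 of the 40 libraries of the series. Its members were chosen by their labels alone: the 4 day 7 libraries labelled as XAV939-treated and the 4 untreated libraries of the same day, paired by the replicate number in their titles. The cells were of the CGR8 line, an embryonic stem cell line of strain 129, and the deposited label for all libraries is differentiated mouse embryonic stem cells. All aggregates were grown in serum-free N2B27 medium with Activin-A, Fgf2 and KSR. The treated group received XAV939 from hour 0 to hour 72, so the day 7 libraries were taken 4 days after the end of exposure. The untreated group carries the words "no matrigel" in its titles and the treated group does not, and a difference in matrix, if there was one, cannot be told apart from the drug. Groups of 4 libraries of each kind exist for days 3 to 7. The labels name no genetic change in either group, and do not say whether the 4 replicates were separate cultures. The p-values therefore measure only the spread between libraries that is left once replicate number within each day is fitted. That spread was estimated for each gene from all 40 libraries.

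XAV939 inhibits tankyrases, enzymes that mark the scaffold protein axin for degradation. With tankyrase blocked, axin accumulates, the complex that destroys beta-catenin becomes more active, and transcription driven by Wnt and beta-catenin falls. In the embryo, Wnt signals at the posterior end sustain the primitive streak and the progenitors of trunk mesoderm and spinal cord, while the anterior neural plate forms where Wnt activity is low. Aggregates of stem cells that develop along such axes (gastruloids) can hold neural tissue, somite-like mesoderm, heart and vessel precursors and gut endoderm side by side.

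The 8 libraries held between 30197759 and 44086019 counts, which is also the range over all 40. Of 26906 genes in the count table, 16878 had enough counts to be tested. The day 7 libraries contained markers of several tissues: Sox1, Sox2, Pax6 and Nes of neural progenitors, Tubb3 and Elavl3 of neurons, Meox1, Tcf15 and Pax1 of somites, Kdr and Cdh5 of endothelium, Foxa2 and Epcam of gut. The muscle regulator Myog and the embryonic globin Hba-x were at 0 in all 8 libraries, and Myod1 did not pass 0.0832 CPM (the read count relative to all counts of the library, scaled by the size of each library and its normalization factor). Libraries with the same replicate number deviated together from their group means, with correlations across genes of 0.256 to 0.520, and each of the 8 correlated best with its own number. XAV939 library 1 stood apart. It lay at 60.3 on the first principal component, where the other 7 lay between -42.2 and 22.6. The log2 differences of pair 1 had an SD over genes of 0.655 against 0.414 to 0.486 in the other 3 pairs. Its mitochondrially encoded share was 1.21%, against 2.41% to 2.51% in the other XAV939 libraries and 1.82% to 2.74% in the untreated group. The 1.82% was that of its partner, and replicate 1 also had the lowest share of both groups at days 3, 4 and 5.

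In the paired comparison, 381 of 16878 genes (2.26%) passed an adjusted p of 0.05 (edgeR quasi-likelihood test, Benjamini-Hochberg adjustment over all genes tested). Of these, 159 (0.942%) were higher with XAV939 and 222 (1.32%) were lower. The median change was 1.16 on the log2 scale among the higher genes and fell by 0.95 among the lower ones. All but 1 of the higher genes were higher in all 4 pairs, and 215 of the 222 lower genes were lower in all 4, where 12.7% and 14.5% of all genes were, or 27.2% in either direction. The 2 groups of 4 libraries did not overlap for 57 of the higher and 115 of the lower genes, against 4.9% of all genes. These calls depend on the pairing: the same fit without the replicate block called 0 genes higher and 1 lower (Unc45b). With 1 pair left out, the fit called 12 higher and 69 lower without pair 1, 50 and 121 without pair 2, 20 and 36 without pair 3, and 25 and 28 without pair 4. With all pairs, 2272 genes (13.5%) had an unadjusted edgeR p under 0.05, the share to set beside such counts in the lists below. None of the 381 changed sign in any of 22 other settings. That adds little support, because nearly all of them had the same sign in all 4 pairs.

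Of 16 tested neuron genes, 11 were called higher and 0 lower, all 16 fold changes were positive, and the median log2 fold change was 1.19 where that of all genes tested was -0.01. Dcx, a microtubule-binding protein of migrating neurons (chromosome X, 143855842 to 143933311 in mm10), had 36.5, 15.2, 8.24 and 22.1 CPM in untreated libraries 1 to 4. It had 115, 56.2, 23.9 and 58.2 CPM in the XAV939 libraries of the same numbers. The XAV939 library was higher in every pair although the groups overlapped, and the fitted change was 3.07-fold (log2 1.62, SE 0.30, edgeR adjusted p = 0.0107). Nefm, a neurofilament subunit, had 55.1, 28.1, 16.9 and 37.1 CPM untreated. With XAV939 it had 270, 110, 42.6 and 86.9 CPM, 3.27-fold higher in the fit (edgeR adjusted p = 0.0121). Its neighbour Nefl, the light neurofilament subunit, was 2.54-fold higher (edgeR adjusted p = 0.0274). The 2 genes overlap on opposite strands of chromosome 14 in the annotation, and since the use of strand in counting is not given in the sources used here, their reads may not be fully separate.

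The other neuronal calls were of the same kind. Stmn2, a regulator of microtubules in growing axons, had 20.6, 25.6, 9.19 and 18.3 CPM untreated and 108, 56.1, 22.4 and 40.9 CPM with XAV939. Its fitted change was 2.82-fold (edgeR adjusted p = 0.0403), and library 1 was the highest of the XAV939 libraries, as for Dcx and Nefm. Elavl4, an RNA-binding protein of differentiated neurons, followed another order: it had 34.3, 32.3, 10.8 and 31.6 CPM untreated and 62.0, 63.1, 25.0 and 69.0 CPM with XAV939. Replicate 3 was the lowest in both groups, every pair moved by a similar ratio, and the 2.05-fold rise was called with an edgeR adjusted p of 0.00295. Snap25, a component of the machinery that fuses synaptic vesicles, was at 4.0 to 5.73 CPM untreated and 7.78 to 13.6 CPM with XAV939, with no overlap (log2 1.17, SE 0.20, edgeR adjusted p = 0.00647). Map2, Ina, Gap43, Syt1 and Mapt were also called higher. Of the 5 members not called, Tubb3 (neuronal beta-tubulin) was at 41.6, 60.4, 17.3 and 47.0 CPM untreated and 198, 130, 29.2 and 89.7 CPM with XAV939 (edgeR adjusted p = 0.0811), Elavl3 and Rbfox3 had edgeR adjusted p of 0.0529 and 0.0598, and Elavl2 and Isl1 0.110 and 0.980. The summed level of the 16 genes ran from 211.8 to 401.8 CPM untreated and from 354.8 to 1427 CPM with XAV939, the highest being library 1.

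**Figure D1:**
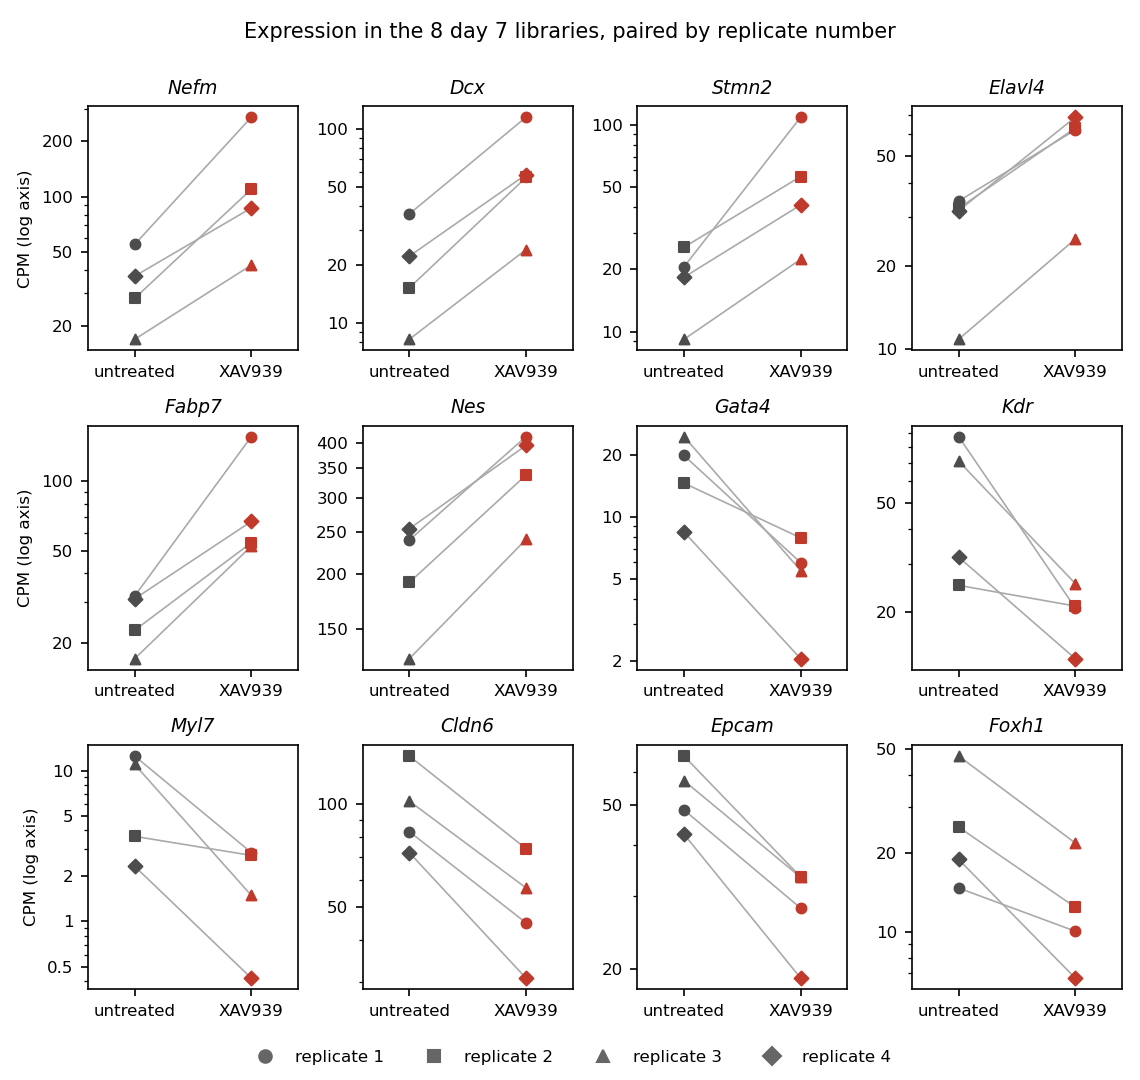
CPM (log axis) of 12 genes in the 8 day 7 libraries, untreated in grey and XAV939 in red; each symbol is one replicate number and lines join the 2 libraries that share it. The neuronal and neural progenitor genes Nefm, Dcx, Stmn2, Elavl4, Fabp7 and Nes lie higher with XAV939 in all 4 pairs, and Gata4, Kdr, Myl7, Cldn6, Epcam and Foxh1 lie lower in all 4.

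Outside that list, the largest rises at 5 CPM or more also included genes with known roles in neurons. Dcc, the axonal netrin receptor, was at 3.19 to 10.4 CPM untreated and at 61.6, 10.3, 20.3 and 21 CPM with XAV939 (log2 1.93, SE 0.36, edgeR adjusted p = 0.0135). Myt1 and St18, zinc-finger factors of the same family that act as neurons differentiate, had log2 fold changes of 1.5 and 1.34. Chgb, a secretory granule protein of neurons and endocrine cells, was at 1.6, Mapk10, the kinase JNK3 of the nervous system, at 1.66, and the choline transporter-like gene Slc44a5 at 1.55. Of 10 tested proneural basic helix-loop-helix factors, which commit progenitors to becoming neurons, 1 was called higher: Nhlh1 had 11.6, 10.7, 2.89 and 11.6 CPM untreated and 21, 24.7, 7.52 and 26.1 CPM with XAV939. All 10 were positive with a median of 0.83, and Neurog1 and Neurod1 were at 1.03 and 0.90 without passing the test. Neurod4, Neurog2, Hes6 and Olig2 were at 0.76, 0.44, 0.36 and 0.24, also not called (edgeR adjusted p 0.100, 0.766, 0.585 and 0.819). Of 13 genes named so far as called in this group outside Map2, Ina, Gap43, Syt1 and Mapt, 11 lost the call without pair 1 (edgeR adjusted p 0.0544 to 0.282), 7 without pair 2 (0.0502 to 0.123), 9 without pair 3 (0.0535 to 0.162) and 9 without pair 4 (0.0541 to 0.154). Without pair 1 the neuron list had 1 member called (Elavl4), a median of 1.0 and 15 positive members.

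Of 16 pan-neural progenitor genes, 3 were called higher and 0 lower, all 16 were positive and the median was 0.71. Nes, the intermediate filament of neural stem cells, had 240, 192, 128 and 254 CPM untreated and 414, 338, 240 and 395 CPM with XAV939. The rise was 1.73-fold (log2 0.79, SE 0.11, edgeR adjusted p = 0.00191), and it kept the call without any 1 pair. Fabp7, a fatty acid-binding protein of radial glia, had 31.9, 22.7, 17.1 and 31.0 CPM untreated and 156, 54.3, 52.4 and 67.0 CPM with XAV939, with no overlap (edgeR adjusted p = 0.0312). Pou3f4, a POU factor of the neural tube, rose with a log2 fold change of 1.31 (edgeR adjusted p = 0.0194). The general progenitor factors did not pass: Sox2 was at 41.7 to 80.8 CPM untreated and 72.7 to 82.1 CPM with XAV939 (log2 0.30, SE 0.32, edgeR adjusted p = 0.843), and Pax6 at 37.4 to 93.0 and 39.9 to 98.3 CPM (log2 0.08, SE 0.36).

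Genes that mark position along the head-to-tail axis of the neural tube gave few calls. Of 15 tested forebrain and eye field factors, 0 were called by edgeR or DESeq2, and the median was 0.16. At an unadjusted edgeR p under 0.05, 2 were higher and 1 lower, where 13.5% of all genes were either. Otx2, a factor of forebrain and midbrain, had 30.8, 61.3, 63.9 and 43.9 CPM untreated and 93.3, 32.8, 53.1 and 24.7 CPM with XAV939, with no common direction (log2 -0.13, SE 0.40). The eye field factor Six3 was at 1.09 to 2.51 CPM untreated and 1.48 to 3.04 CPM with XAV939. Of 12 hindbrain genes, 2 were called higher: Cyp26b1, an enzyme that breaks down retinoic acid, at 10.8 to 27.3 CPM untreated and 30.6 to 55.6 CPM with XAV939 (edgeR adjusted p = 0.0448), and Phox2a, a factor of cranial motor and noradrenergic neurons that overlaps Inppl1 on the other strand, at 0.731 to 2.54 and 1.13 to 5.82 CPM (edgeR adjusted p = 0.0467). The hindbrain segment factor Egr2 stayed at or under 0.435 CPM in every library.

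The midbrain-hindbrain boundary, a signalling centre marked by En1, En2, Pax5 and Cnpy1, gave a high median with no call, and the median was low without pair 1. Of 12 boundary genes, 0 were called by edgeR (4 at an unadjusted p under 0.05, 1 by DESeq2) and the median was 1.02, which became 0.17 without pair 1. En2 had 0.491, 0.683, 0.922 and 0.772 CPM untreated and 61.0, 0.738, 5.88 and 2.15 CPM with XAV939 (edgeR adjusted p = 0.148). Pax5 had 1.34 to 3.51 CPM untreated and 96.2, 1.91, 15.9 and 4.42 CPM with XAV939, and Cnpy1 had 2.10 to 5.73 CPM untreated and 105, 7.82, 23.8 and 9.26 CPM. Replicate 1 of the XAV939 group was the highest for each of these, replicate 3 came next, library 2 lay within the untreated range for En2 and Pax5, and library 4 lay above it for both.

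**Figure D2:**
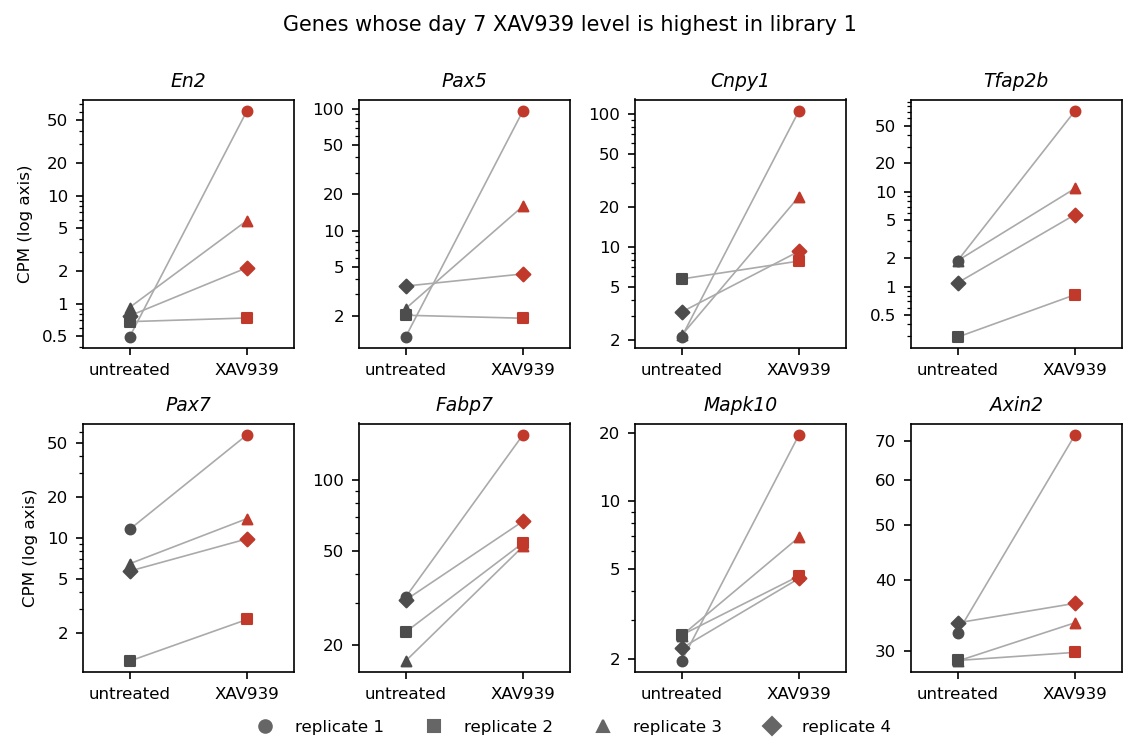
CPM (log axis) of 8 genes, chosen after their values were seen, in the 8 day 7 libraries; symbols are replicate numbers and lines join the paired libraries. XAV939 library 1 (red circle) is the highest value in each panel, from 19.7 CPM for Mapk10 to 156 CPM for Fabp7.

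The same library was the highest for several dorsal genes. Tfap2b, a factor of the neural crest and of inhibitory neurons, had the largest rise at 5 CPM or more: 1.88, 0.293, 1.88 and 1.10 CPM untreated and 72.0, 0.820, 10.9 and 5.76 CPM with XAV939. It was higher in all 4 pairs (log2 3.13, SE 0.62, edgeR adjusted p = 0.0231), and the log2 fold change was 2.26 without pair 1. Pax7, a dorsal neural tube factor, had 11.5, 1.24, 6.46 and 5.70 CPM untreated and 57.3, 2.51, 13.9 and 9.84 CPM with XAV939 (log2 1.33, edgeR adjusted p = 0.0431), and was the 1 call among 13 dorsal genes. Gsx1, the 1 call among 15 intermediate and ventral genes, was at 3.72 CPM in XAV939 library 1 and at or under 0.336 CPM in the other 7 libraries; its fitted log2 fold change ran from 1.96 without pair 1 to 6.19 without pair 3, so no fold is given. Of 13 neural crest genes, Tfap2b was called higher and Snai2, which drives cells out of an epithelium, lower, at 1.73 to 7.38 CPM untreated and 0.783 to 3.08 CPM with XAV939 (edgeR adjusted p = 0.0496). The crest factor Sox10 was at 0.313 to 0.763 CPM untreated and 4.69, 0.519, 1.10 and 1.12 CPM in the XAV939 libraries 1 to 4, and was not called (edgeR adjusted p = 0.0826). Of the 8 called genes Nes, Fabp7, Pou3f4, Pax7, Cyp26b1, Phox2a, Gsx1 and Tfap2b, 7 lost the call without pair 1 (edgeR adjusted p 0.110 to 0.770), 5 without pair 2, 6 without pair 3 and 7 without pair 4 (0.0620 to 0.192 over the last 3).

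Of 19 tested cardiac genes, 6 were called lower and 0 higher, 18 were negative and the median log2 fold change was -1.24. In bulk libraries such as these, fewer cells of a type and less RNA per cell cannot be told apart. Gata4, a zinc-finger factor of heart and endoderm (chromosome 14, 63198922 to 63271692), had 19.9, 14.6, 24.5 and 8.44 CPM untreated and 5.99, 7.90, 5.47 and 2.04 CPM with XAV939. The groups did not overlap and the fall was 3.24-fold (log2 -1.70, SE 0.38, edgeR adjusted p = 0.0269). Its relative Gata6 had 15.8, 8.46, 20.5 and 8.64 CPM untreated and 3.63, 5.63, 6.19 and 2.32 CPM with XAV939, also without overlap (edgeR adjusted p = 0.0486).

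Among the contractile genes, Myl7, a myosin light chain of the atria, had 12.5, 3.66, 11 and 2.32 CPM untreated and 2.86, 2.73, 1.48 and 0.419 CPM with XAV939 (log2 -1.94, SE 0.33, edgeR adjusted p = 0.00532). Myl4, another atrial light chain, was at 1.27 to 7.21 CPM untreated and 0.503 to 1.22 CPM with XAV939 (edgeR adjusted p = 0.0105). The troponin genes Tnnt2 and Tnni1 and the giant sarcomere protein gene Ttn fell in pairs 1, 3 and 4 and not in pair 2, where Tnnt2 was at 2.0 CPM untreated and 3.47 CPM with XAV939. Smyd1, a methyltransferase of heart and skeletal muscle, had a log2 fold change of -1.85 (edgeR adjusted p = 0.0252). Untreated libraries 1 and 3 held the most of these transcripts, with Tnnt2 at 27.1 and 8.49 CPM against 2.0 and 3.31 in libraries 2 and 4. Of these 8 genes, 7 lost the call without pair 1 (edgeR adjusted p 0.0951 to 0.246), 1 (Gata6, 0.0531) without pair 2, all 8 without pair 3 (0.0558 to 0.191) and 6 without pair 4 (0.107 to 0.183). Without pair 2 the log2 fold changes were -3.70 for Tnnt2, -3.68 for Ttn, -2.92 for Tnni1 and -2.48 for Smyd1, and that of Ttn was -2.0 without pair 1. When only the day 7 libraries were fitted, with all pairs, Myl7, Smyd1, Tnni1, Tnnt2 and Ttn lost the call.

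Of 15 tested endothelial genes, 5 were called lower and 0 higher, all 15 were negative and the median was -1.08. Kdr, a receptor for vascular endothelial growth factor, had 87.4, 25.0, 71.1 and 31.7 CPM untreated and 20.7, 21, 25.4 and 13.5 CPM with XAV939. The untreated level was high in libraries 1 and 3, pair 2 differed little, and the fall was 2.41-fold in the fit (edgeR adjusted p = 0.029). Flt1, the related receptor, was at 22.9 to 35.4 CPM untreated and 10.3 to 17.7 CPM with XAV939, with no overlap (log2 -1.07, SE 0.22, edgeR adjusted p = 0.0168). Sox7, an endothelial Sox factor, Cldn5, a tight junction protein of vessels, and Egfl7, a protein secreted by endothelium that overlaps Agpat2 on the other strand, were the other calls (log2 -1.10, -0.95 and -0.70). Rgs5, a gene of pericytes and vascular smooth muscle, had 16, 5.46, 17.7 and 3.54 CPM untreated and 1.64, 3.69, 3.22 and 1.17 CPM with XAV939 (log2 -1.98, edgeR adjusted p = 0.039). The vessel cadherin Cdh5 was at 5.19 to 24.7 CPM untreated and 3.15 to 5.63 CPM with XAV939 and was not called (edgeR adjusted p = 0.122). Of 7 tested blood precursor genes 0 were called by edgeR or DESeq2 (2 at an unadjusted p under 0.05), all 7 were negative, and Lmo2 and Tal1 were at -0.79 and -0.74. Tcf21, a factor of lateral mesoderm that stayed at or under 1.43 CPM, was the 1 call (lower) among 15 lateral mesoderm genes. The 8 called genes Kdr, Flt1, Sox7, Cldn5, Egfl7, Rgs5, Tcf21 and Snai2 all lost the call without pair 1, without pair 3 and without pair 4 (edgeR adjusted p 0.0640 to 0.273), and 2 of them, Sox7 and Tcf21, without pair 2. Kdr, Cldn5, Rgs5 and Snai2 also lost it when only the day 7 libraries were fitted, with all pairs.

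Of 18 endoderm and gut genes 9 were called lower and 0 higher (17 negative, median -0.89), and of 20 epithelial and surface ectoderm genes 9 were lower and 0 higher (19 negative, median -0.77). The lists share Cldn6, Epcam, Krt8 and Krt18, so the counts are not separate, and 2 of the 9 in the first are Gata4 and Gata6. Cldn6, a tight junction protein of embryonic epithelia, had 83.1, 139, 102 and 72.1 CPM untreated and 44.8, 74.0, 56.8 and 30.8 CPM with XAV939. Each pair fell by a similar ratio, 1.95-fold in the fit (edgeR adjusted p = 0.00212), and the call held without any 1 pair. Epcam, an epithelial adhesion molecule, had 48.6, 65.6, 57.2 and 42.4 CPM untreated and 28.1, 33.4, 33.4 and 19 CPM with XAV939, with no overlap (edgeR adjusted p = 0.0198). The epithelial cadherin Cdh1 was at 133 to 225 CPM untreated and 69.3 to 128 CPM with XAV939 (log2 -0.76, edgeR adjusted p = 0.0374), and the keratins Krt8 and Krt18 had log2 fold changes of -0.77 and -0.76. Esrp1, which sets epithelial splicing, and Prss8, a membrane protease of epithelia, were at -0.90 and -0.79. Grhl2, Cldn7, Hnf4a and Spink1 were the other calls of the lists, with Apoa1, an apolipoprotein of yolk sac and gut, at -1.46.

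Of the genes outside both lists, Lad1, a filament-anchoring protein of epithelia, had 6.85, 6.31, 6.84 and 4.51 CPM untreated and 2.16, 3.83, 2.53 and 1.34 CPM with XAV939, without overlap (log2 -1.37, SE 0.21, edgeR adjusted p = 0.00295). Rfx6, a factor of pancreatic and gut endocrine cells, had 6.96, 13.6, 11.4 and 6.72 CPM untreated and 3.02, 5.33, 4.84 and 1.90 CPM with XAV939 (log2 -1.39, edgeR adjusted p = 0.00697), and the stomach protease gene Pga5 was at -1.52. Of 7 tested yolk sac genes, 3 were called lower: Apoa1, Rbp4 (log2 -0.74) and Sox7. The endoderm factors Sox17 and Foxa2 were not called: Sox17 was at 6.74 to 11.2 CPM untreated and 2.46 to 8.47 CPM with XAV939 (edgeR adjusted p = 0.100), and Foxa2 had no common direction, at 21.4 to 46.4 and 18.1 to 38.7 CPM (log2 -0.20). Of the 12 called genes Cldn6, Epcam, Cdh1, Krt8, Krt18, Esrp1, Prss8, Lad1, Apoa1, Rbp4, Rfx6 and Pga5, 8 lost the call without pair 1, 8 without pair 2, 9 without pair 3 and 10 without pair 4 (edgeR adjusted p 0.0511 to 0.208), and Cldn6 and Lad1 kept it each time.

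**Figure D3:**
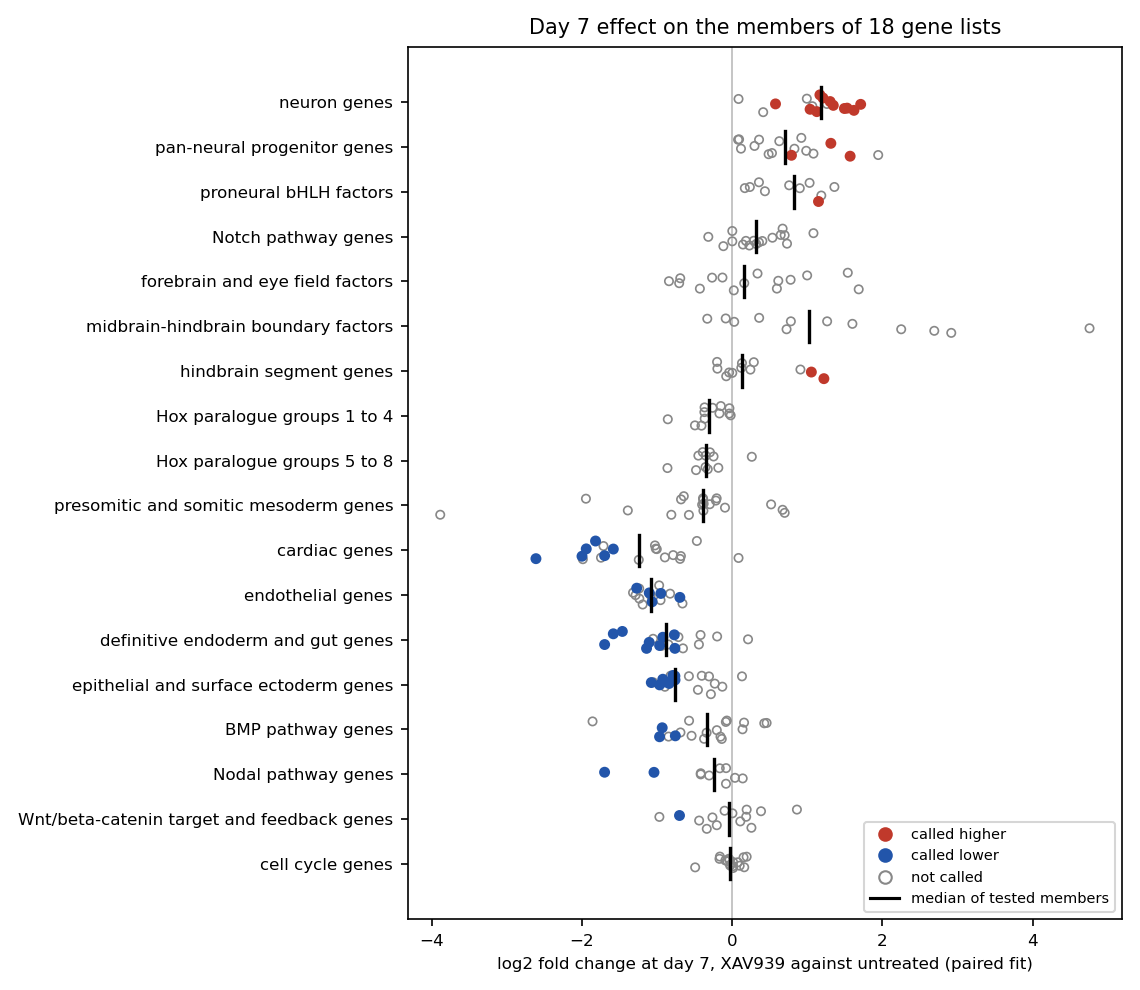
Fitted log2 fold change at day 7 (XAV939 against untreated) of the tested members of 18 gene lists; filled red and blue points are called higher and lower, open points are not called, and bars are medians. Neuron genes have a median of 1.19 and cardiac, endothelial, gut and epithelial genes have medians of -1.24, -1.08, -0.89 and -0.77, while the medians of the Wnt target and cell cycle lists are -0.05 and -0.02.

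The pathway that XAV939 acts on gave few calls 4 days after exposure. Of 14 Wnt/beta-catenin target and feedback genes, 0 were called higher and 1 lower, 7 were positive and 7 negative. Axin2, the usual reporter of beta-catenin activity, had 32.3, 28.9, 28.8 and 33.7 CPM untreated and 71.9, 29.9, 33.7 and 36.4 CPM with XAV939. Library 1 was high and the other 3 were within 5 CPM of their partners, and Axin2 was not called (log2 0.38, SE 0.18, edgeR adjusted p = 0.353). The transcription factors Lef1 and Tcf7 were at -0.26 (SE 0.20) and -0.20 (SE 0.17) and Sp5, a direct target, at 0.00 (SE 0.52). The call was Rnf43, which removes Wnt receptors from the cell surface, at 2.63 to 3.75 CPM untreated and 1.17 to 2.51 CPM with XAV939 (edgeR adjusted p = 0.0457). Of 13 tankyrase and destruction complex genes 0 were called by edgeR (2 at an unadjusted p under 0.05, 1 by DESeq2). Tnks, the tankyrase gene, was at 299 to 346 CPM untreated and 262 to 296 CPM with XAV939 (log2 -0.21, SE 0.17), and Ctnnb1, which encodes beta-catenin, had a log2 fold change of -0.02 (SE 0.05). Among 19 Wnt ligands 0 were called by edgeR or DESeq2 (3 at an unadjusted p under 0.05), and among 12 secreted antagonists Frzb, a decoy for Wnt ligands, was lower at 45.3 to 64.2 CPM untreated and 28.7 to 45.8 CPM with XAV939 (edgeR adjusted p = 0.0353).

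Signals of the BMP and Nodal families had lower members. Of 19 BMP pathway genes, 3 were called lower and 0 higher. Bambi, a decoy receptor that BMP signalling induces, had 21.2, 25.1, 28.2 and 15.4 CPM untreated and 12.5, 14.3, 11.6 and 8.50 CPM with XAV939. The groups did not overlap, the fall was 1.91-fold (log2 -0.93, SE 0.13, edgeR adjusted p = 0.00191) and the call held without any 1 pair. The ligands Bmp4 and Bmp2 fell with log2 fold changes of -0.97 and -0.76, and Bmper, a secreted BMP-binding protein of vessels outside the list, with -1.45 (edgeR adjusted p = 0.0108). Of 10 Nodal pathway genes, 2 were called lower. Foxh1, the DNA-binding partner of the Smad proteins in Nodal signalling, had 14.8, 25.2, 47.1 and 19 CPM untreated and 10.1, 12.5, 21.9 and 6.68 CPM with XAV939; every pair fell although the groups overlapped, and its edgeR adjusted p was 0.000489. Cfc1, a Nodal co-receptor, was at 2.57 to 9.0 CPM untreated and 0.531 to 2.87 CPM with XAV939 (edgeR adjusted p = 0.0107). Eomes, a T-box factor of the streak and endoderm, had 2.08, 5.29, 13 and 5.03 CPM untreated and 0.915, 1.34, 3.33 and 1.37 CPM with XAV939 (log2 -1.80, edgeR adjusted p = 0.0384), and the ligand Nodal itself was not called (log2 -0.42).

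Of 17 FGF genes, Fgf1 was called lower from a level of at most 1.25 CPM, and of 15 retinoic acid genes, Cyp26b1 was the call, higher. Lists of 17 Notch and 13 Hedgehog pathway genes had 0 calls by edgeR or DESeq2 (6 and 1 at an unadjusted p under 0.05), with medians of 0.32 and -0.02, and 15 of the 17 Notch genes were positive. Of the 10 called genes Rnf43, Frzb, Bambi, Bmp4, Bmp2, Bmper, Foxh1, Cfc1, Eomes and Fgf1, 6 lost the call without pair 1, 4 without pair 2, 8 without pair 3 and 7 without pair 4 (edgeR adjusted p 0.0614 to 0.260).

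Trunk genes, many of them lower at day 5, were not called at day 7. Of 12 Hox genes of paralogue groups 1 to 4, 11 of groups 5 to 8 and 5 tested of groups 9 to 13, 0 were called by edgeR or DESeq2 at day 7. Where 13.5% of all genes had an unadjusted edgeR p under 0.05, 1 of these Hox genes did. Their medians were -0.31, -0.35 and -0.47, against -1.52, -2.90 and -2.18 at day 5, when 8, 9 and 1 of them were called lower. At day 5, 7.35% of all genes were called, 2.93% higher and 4.41% lower. Hoxb9, a trunk Hox gene, had 180, 69.8, 103 and 146 CPM untreated and 79.7, 71.8, 114 and 148 CPM with XAV939 at day 7, so that it differed in pair 1 and hardly in the others (log2 -0.24, SE 0.37). Hoxb4 and Hoxb8 were at -0.37 (SE 0.35) and -0.25 (SE 0.38). Of 19 presomitic and somitic genes 0 were called by edgeR or DESeq2 at day 7 (3 at an unadjusted p under 0.05) and 10 were lower at day 5. Meox1, a somite homeobox factor, had 129, 94.7, 179 and 133 CPM untreated and 64.9, 94.6, 144 and 114 CPM with XAV939 (log2 -0.38, SE 0.37), after a log2 fold change of -2.60 at day 5. The streak and tail factor T (brachyury) was at 15.6 to 78.3 CPM untreated and 21.5 to 64.7 CPM with XAV939 (log2 0.13, SE 0.56). The differences between the 2 days were not called for any of these Hox genes or Meox1 (day 7 minus day 5 log2 1.94 for Hoxb9, edgeR adjusted p = 0.184, and 2.22 for Meox1, edgeR adjusted p = 0.227), so their return toward 0 was not established by the test of the difference.

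For 20 of the 16878 genes (0.118%) the XAV939 effect at day 7 did differ from that at day 5, 15 with a higher and 5 with a lower value at day 7. Aldh1a2, which makes retinoic acid in somites, had a log2 fold change of -4.15 (edgeR adjusted p = 0.000583) at day 5 and -0.22 (SE 0.44) at day 7, a difference of 3.93 (SE 0.74, edgeR adjusted p = 0.0349). At day 7 it had 49.4, 57.2, 68.6 and 66.3 CPM untreated and 36.2, 45.6, 89.0 and 48.1 CPM with XAV939, which overlap. Dll3, a Notch ligand of the presomitic mesoderm and of new neurons, went from -1.83 to 0.67. Slit1, a guidance ligand of the neural tube, had the smallest adjusted p of the differences (-1.25 at day 5, 0.51 at day 7, difference 1.76, SE 0.21, edgeR adjusted p = 0.000765). Ttyh1, a membrane protein of neural progenitors, and Pou2f2, a POU factor of some neurons, rose at day 7 (log2 1.29 and 1.18) and were at -0.69 and -0.50, not called, at day 5. In the other direction Npnt, an extracellular matrix ligand of integrins, went from 0.70 to -0.38, and Tmcc3, Sirpa and Rhpn2 from 0.77, 0.51 and 0.33 to -0.31, -0.26 and -0.41. The day 7 effects of Dll3, Slit1, Npnt, Tmcc3 and Sirpa were not themselves called (edgeR adjusted p 0.344, 0.0583, 0.160, 0.320 and 0.204). With 1 pair of day 7 left out, Slit1 was the 1 gene called with a higher value at day 7 each time, and 0 to 2 genes were called with a lower one (Rhpn2 and Tmcc3 without pair 1, Tnnt2 and Unc45b without pair 2, Rhpn2 without pair 3). Tnnt2 and Unc45b were not among the 20 genes called with all pairs.

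**Figure D4:**
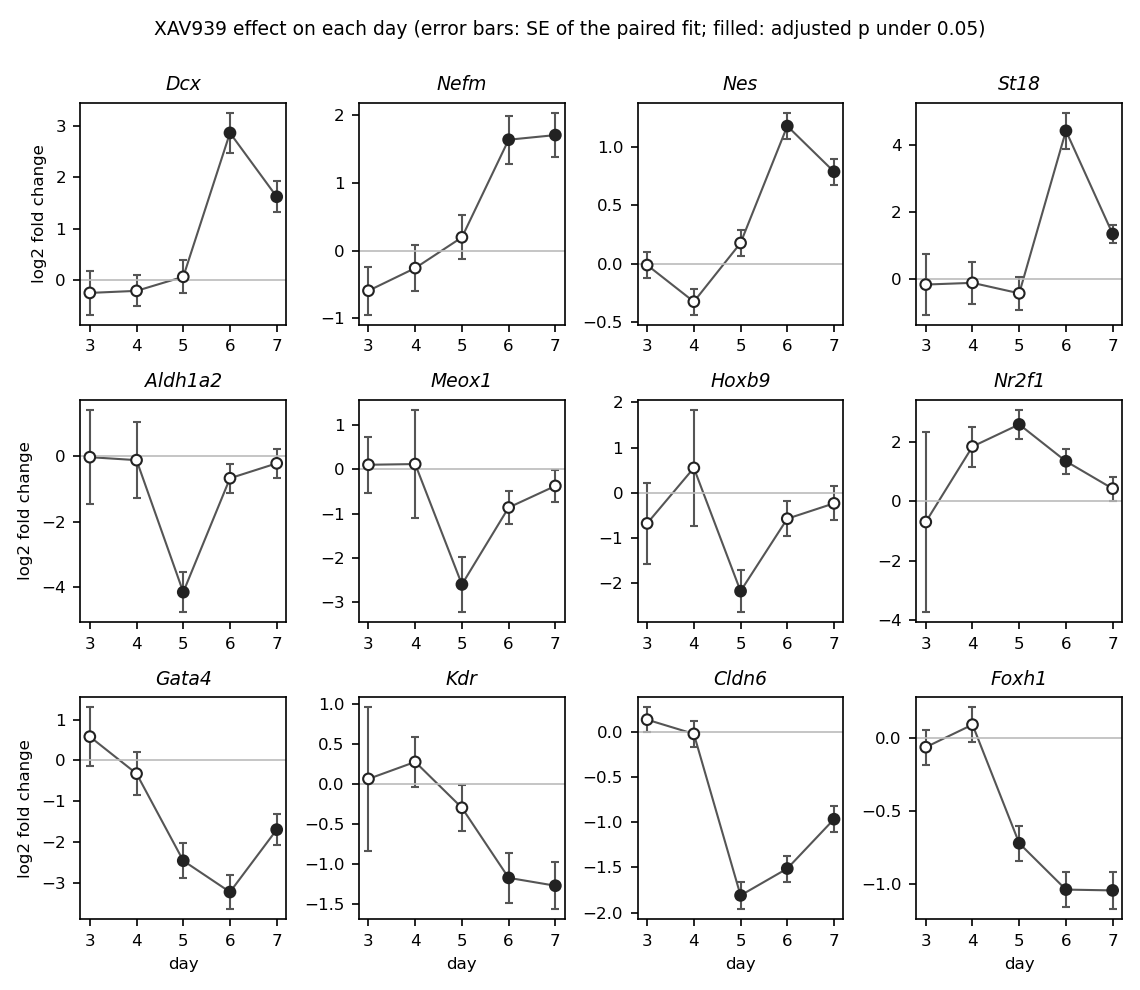
Fitted log2 fold change of XAV939 against untreated at days 3 to 7 for 12 genes, with the SE of the paired fit as error bars; filled points have an adjusted p under 0.05 in the fit of all genes. Dcx, Nefm, Nes and St18 lie between -0.43 and 0.20 at day 5 and are called higher at days 6 and 7, Aldh1a2, Meox1 and Hoxb9 are lowest at day 5, and Gata4, Kdr, Cldn6 and Foxh1 are below 0 at days 6 and 7.

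No gene had an effect at day 7 that differed from that at day 6 by the edgeR test. There were 724 genes (4.29%) at an unadjusted p under 0.05, while DESeq2 called 9 higher and 5 lower. At day 6, 10.2% of all genes were called, 732 (4.34%) higher and 995 (5.9%) lower. Of the 159 genes called higher at day 7, 102 were also called higher at day 6, which is 64.15% of the day 7 calls and 13.93% of the day 6 calls. Of the 222 called lower, 180 were lower at day 6, which is 81.08% and 18.09%. The days share no library, but the fit estimates one spread per gene for all of them. No gene was called in opposite directions on days 6 and 7, and the 381 genes had median log2 fold changes at day 6 of 1.08 for the higher and -1.13 for the lower group. At day 5 the same direction was called for 31 of 159 higher genes (19.5%) and 98 of 222 lower genes (44.14%), and 94 of the 381 were called at neither day. Between days 5 and 7, 2 genes were called in opposite directions: Aldh1b1, a mitochondrial aldehyde dehydrogenase named after its values were seen, was lower at day 5 (log2 -0.94) and higher at day 7 (1.09), and Rhpn2 was higher at day 5 and lower at day 7. Dcx had log2 fold changes of 0.06 at day 5 and 2.87 at day 6, Nefm of 0.20 and 1.64, and Nes of 0.18 and 1.18. The day 6 levels were uneven between libraries for Dcx, at 1.15 ± 0.58 CPM untreated and 12.1 ± 14.9 CPM with XAV939 (SD, n = 4). The same held for Nefm (7.53 ± 1.11 and 35.1 ± 39.6 CPM) and St18 (0.0637 ± 0.0590 and 1.69 ± 2.12 CPM). Nes was more even, at 120 ± 36.7 and 273 ± 78.0 CPM. Cldn6 and Foxh1 were already lower at day 5, with -1.81 and -0.72. At days 3 and 4, edgeR called 0 genes, with 1313 and 1660 at an unadjusted p under 0.05.

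Some early effects were absent from the day 7 calls. Nr2f1, an orphan nuclear receptor of anterior neural tissue, had a log2 fold change of 2.60 at day 5 and 1.36 at day 6, both called, and at day 7 was at 101, 75.6, 56.6 and 113 CPM untreated and 98.7, 121, 92.2 and 147 CPM with XAV939 (log2 0.43, SE 0.41, edgeR adjusted p = 0.803). Vgll3, a cofactor of TEAD factors, was at 2.87 and 2.71 on days 5 and 6 and at 0.40 (SE 0.55) on day 7. Neither passed the test of the difference between day 7 and day 6 (edgeR adjusted p = 0.907 and 0.718) or day 5 (0.164 and 0.176). Cyp26a1, which breaks down retinoic acid, was lower at days 5 and 6 (log2 -2.04 and -2.19) and at day 7 had 15.8, 27.4, 40.6 and 24.1 CPM untreated and 11.6, 14.7, 26.3 and 12.4 CPM with XAV939, lower in each pair but not called (log2 -0.73, edgeR adjusted p = 0.0578).

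Lists of general cell state gave 0 calls by edgeR: 17 cell cycle genes (median -0.02, 3 at an unadjusted p under 0.05), 10 p53 response genes (-0.04, 0), 14 stress response genes (-0.07, 0), 10 mitochondrially encoded genes (-0.22, 0), 16 hypoxia and glycolysis genes (0.17, 5) and 15 pluripotency genes (-0.33, 4). DESeq2 called 3 of the pluripotency genes lower and 0 of the others. Over all genes tested, 13.5% had an unadjusted edgeR p under 0.05. Pou5f1, the pluripotency factor Oct4, was at 0.826 to 10.8 CPM untreated and 1.64 to 4.43 CPM with XAV939. Igf2, an imprinted growth factor, had 282, 228, 279 and 164 CPM untreated and 78.4, 114, 129 and 75.6 CPM with XAV939, a 2.41-fold fall without overlap (edgeR adjusted p = 0.0121), and was the 1 call among 16 imprinted genes; it overlaps the antisense gene Igf2os. The basement membrane genes Lamb1 and Col4a1 fell by small amounts (log2 -0.57 and -0.39), Lamb1 from 141 to 180 CPM untreated to 86.7 to 128 CPM with XAV939. Unc5b, a netrin receptor of vessels and neurons, fell (log2 -1.04, edgeR adjusted p = 0.0118) and was, with Dcc, 1 of 2 calls among 24 axon guidance genes. Prdm1 and Tead4 were the lower calls of the germ cell and TEAD lists (log2 -1.11 and -0.84), and the germ cell genes Dppa3, Ddx4 and Dazl stayed at or under 0.419 CPM. Of these 6 genes only Lamb1 kept the call without each pair; the others lost it without pair 3 and pair 4 (edgeR adjusted p 0.0551 to 0.201).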

How the data were processed

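Poly(A) RNA from 40 libraries was sequenced after a stranded TruSeq preparation from 300 ng of RNA, on a HiSeq 4000 with paired reads of 81 bases, per the labels' protocols. Base calls were converted with bcl2fastq 2.20.0 and the genome build was mm10, per the submitters' processing notes; which aligner, counter and annotation were used, and whether by strand, is not given in the sources used here. As deposited, the values are raw read counts per Ensembl gene, and 26881 of 26906 gene identifiers were matched to GENCODE M21 for coordinates and overlaps. No 2 libraries of a day 7 group agreed within counting error (chi-square at least 18.9 per gene).

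The counts of all 40 libraries were fitted together with edgeR 4.0.16 (R 4.3.3): 10 group means, a block for replicate number within each day, TMM factors, filterByExpr (minimum count 10) and the quasi-likelihood test, with 15 residual degrees of freedom. A gene was called at an adjusted p under 0.05. CPM values use the same normalization factors. The block followed the replicate numbers in the labels, by which the compared libraries were paired. Libraries of the same number also deviated together in every pair and day, with a lowest correlation of 0.145. That was number 4 at day 3, where XAV939 library 4 correlated at 0.302 with untreated library 3. At day 7 each library correlated best with its own number. On simulated counts for 16763 genes, the day 7 test found 87% of 2-fold and 100% of 4-fold changes, with 4.59% of calls false. The tests of day 7 against day 6 and day 5 found 69% and 66% of 2-fold changes. The counts were drawn from the fitted model, with its block and spread, and changes were placed only in genes above a minimum level. The simulation therefore cannot show what a deviant library or a wrong pairing does to the calls.

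Named genes were the 12 called at day 7 with the largest change in each direction, at 5 CPM or more and with 1 sign in all 4 pairs. Added to them were the 6 largest called differences in each direction between days, at 5 CPM or more with no rule on pairs. The 2 to 4 members of each list and a fixed panel had neither filter. Elavl3, Cdh5, Cdh1, Krt8, Krt18, the genes of XAV939 library 1 plotted together, genes given with the list members called, and those of the closing observations and Neto1 were named after their values were seen. Some genes that the rule names are not reported here. The members and lists were chosen with earlier results of these data known. Alternatives were no block, only the libraries compared, other size factors, other filters, DESeq2 1.42.0, length and GC offsets, and leaving out each pair or library. List changes are counts and medians, with no test of the list. Precision is limited by the spread between libraries as well as by counting error.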

Additional observations from a re-analysis of the deposited data

Results flagged for a closer look

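Among the named genes, 124 genes in 2 groups of 4 day 7 libraries, or 248 groups, were looked at for 1 library far from the other 3 (Dixon's ratio on CPM, 95% critical value). Chance flags about 1 in 20 groups, and 19 were found. The genes were not chosen at random, some were named after their values were seen, and they share libraries. The 19 can therefore not be weighed against that share. In 12 of these the library was XAV939 library 1, at a high value: Mapk10 at 19.7 CPM (others 4.56 to 6.93), Fabp7 at 156 (52.4 to 67.0), Gsx1 at 3.72, Tfap2b at 72.0, Cnpy1 at 105, Pax5 at 96.2, En2 at 61.0, En1 at 16.6 (0.0273 to 1.25), Sox10 at 4.69, Axin2 at 71.9, Ttyh1 at 19.2 (7.37 to 8.95) and Neto1 at 8.24 CPM. Neto1, a co-receptor of glutamate receptors named after its values were seen, was at or under 1.30 CPM in the other 3 XAV939 libraries and at or under 0.156 CPM untreated. Its call held without each pair; no fold is given because the untreated counts are near 0.

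In 6 groups the library was replicate 3, at a low value, and the genes were neuronal or proneural. Elavl4 was at 10.8 CPM untreated and 25.0 CPM with XAV939, Elavl3 at 12.5 and 22.5 CPM, Myt1 at 5.78 CPM with XAV939 and Nhlh1 at 2.89 CPM untreated. Both libraries numbered 3 were low for Elavl4 and Elavl3, and within pair 3 both genes were higher with XAV939, as in the other pairs. In the remaining group, Cdh5 was at 24.7 CPM in untreated library 1 and at 5.19 to 8.34 CPM in the others.

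The XAV939 effect differed between day 7 and day 5 for 9 of the named genes, by edgeR's test of the difference with Benjamini-Hochberg adjustment. The differences on the log2 scale were 3.93 for Aldh1a2, 2.50 for Dll3, 1.99 for Ttyh1, 1.76 for Slit1 and 1.68 for Pou2f2, and -0.74 for Rhpn2, -0.77 for Sirpa, -1.07 for Tmcc3 and -1.08 for Npnt, with adjusted p between 0.000765 and 0.0349. For Aldh1a2, the untreated level at day 5 was 69.0 ± 98.5 CPM (SD, n = 4), against 2.07 ± 1.53 CPM with XAV939.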

How the results depend on the processing

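The paired fit of all 40 libraries called 159 genes higher and 222 lower at day 7, and the number of calls rests on the replicate block: without it 0 and 1 were called, and with only the compared libraries 355 and 322 with the block and 0 and 0 without. The 355 and 322 included only 118 of the 159 higher and 152 of the 222 lower genes. RLE size factors gave 164 and 219, no filter on low counts 110 and 143, a minimum of 5 CPM in 4 libraries 57 and 113, and a change of at least 1 on the log2 scale 106 and 97. DESeq2 gave 265 and 351. Offsets for length and GC gave 336 and 399 with the block and, as an alternative chosen after seeing the data, 20 and 14 without it. With 1 pair left out the range was 12 to 50 higher and 28 to 121 lower, and with 1 library left out of the unpaired fit 0 to 62 and 0 to 21. The day 7 minus day 6 difference had 0 and 0 calls, 9 and 5 by DESeq2, and 0 to 2 lower with 1 pair left out (2 without pair 2). The day 7 minus day 5 difference had 15 and 5: without the block 2 and 0, with only the compared libraries 80 and 20 (block) or 0 and 0 (no block), with RLE 48 and 10, without a filter 36 and 9, at 5 CPM 12 and 4, at log2 of 1 15 and 3, with DESeq2 145 and 67, with offsets 61 and 39 (block) or 4 and 2 (no block). With 1 pair left out it had 1 higher each time and 0 to 2 lower, and with 1 library left out of the unpaired fit 0 to 2 and 0. Of 78 named genes called at day 7, 0 were called without the block (edgeR adjusted p 0.0793 to 0.952). With only the compared libraries and the block, 14 lost the call (edgeR adjusted p 0.0503 to 0.200). The 14 were Bmp4, Cldn5, Fgf1, Kdr, Mapk10, Myl7, Rgs5, Rnf43, Slc44a5, Smyd1, Snai2, Tnni1, Tnnt2 and Ttn. The call was lost for 27 without a filter, 19 at 5 CPM and 4 with DESeq2 (Apoa1, Gsx1, Pga5 and Tcf21). It was lost for 0 with RLE factors or with offsets and the block. No gene called at day 7 in the main fit changed sign in any setting run. Some named genes that were not called did change sign. Over the paired settings, Hoxb4 ran from a log2 fold change of -0.60 to 0.05 and Otx2 from -0.66 to 0.15. The cause of these differences was not tested. Genes near or under 1 CPM, such as Gsx1 and Neto1, are limited by their low counts.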

Other observations

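Of the 381 genes called at day 7, 62 belong to the 47 lists and 319 do not. The number of fits with 1 pair left out that kept the call was 4 for 27 genes, 3 for 11, 2 for 32, 1 for 113 and 0 for 198. The 27 genes, 7 higher and 20 lower, were also called in each of the other paired settings in which they were tested (10 paired settings in all), and were picked here from the results. Among the lower ones, F11r, a junctional adhesion molecule, fell from 62.1 to 85.1 CPM untreated to 31.9 to 49.6 CPM with XAV939 without overlap, and Ripk4, a regulator of epithelial differentiation, had a log2 fold change of -0.93. The zinc transporter gene Slc39a8 had 45.5, 60.7, 70.2 and 41.2 CPM untreated and 25.5, 33.1, 40.7 and 20.2 CPM with XAV939 and the lowest adjusted p of the 27 (log2 -0.88, SE 0.09, edgeR adjusted p = 0.000221). Clic6, a chloride channel-like protein, had 49.6, 60.7, 57.4 and 32.5 CPM untreated and 25.9, 30.8, 20.6 and 12.5 CPM with XAV939, 2.28-fold lower. Hhex, a homeobox factor of anterior endoderm and vessels, was at 18.8 to 31.5 CPM untreated and 6.96 to 14.4 CPM with XAV939, and Cpm, a membrane carboxypeptidase, at 103 to 195 and 50.4 to 97.7 CPM. Kcnj5, Emb and Gfpt2 fell with log2 fold changes of -1.39, -0.74 and -0.74. The lower genes among the 27 include Lad1, Cldn6, Bambi, Foxh1 and Lamb1 of the report, and the higher ones Nes, Elavl4 and Pou2f2.

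Of the lists not described in the report, 5 gave 0 calls by edgeR at day 7. Their medians were -0.23 for 14 caudal epiblast genes (3 at an unadjusted p under 0.05, 1 called lower by DESeq2), -0.73 for 8 intermediate mesoderm genes (5 at an unadjusted p under 0.05), -0.31 for 11 cranial placode genes (5), 0.03 for 8 notochord and node genes (0) and 0.20 for 3 Nr2f genes (0). The intermediate mesoderm list had 6 negative members. Over all genes tested, the share at an unadjusted edgeR p under 0.05 was 13.5%. A further list, of 6 tested skeletal muscle genes, had 1 call, Ttn, lower.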
